A study of Drosophila melanogaster with 6 samples.

Results

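Osi11 to Osi20 are 10 genes of the Osiris family that lie together on chromosome arm 3R of Drosophila melanogaster. They were taken as the probe sets whose gene symbol in the platform annotation is one of these names. Each name had 1 probe set, so the 10 genes account for 10 of the 13646 probe sets that name a single gene, and for 10 of 11981 genes. RNA was compared between trh null embryos (3 arrays) and wild type embryos (3 arrays). The trh null embryos lacked function of the gene trachealess (trh) and were picked in a biosorter by the absence of the GFP carried on the balancer chromosome. The wild type embryos passed through the same sorter. The strain of the wild type and the trh allele were not given in the sources used here. Embryos of both genotypes came from collections of 8 h that were aged a further 11 h, and are labelled as stages 11 to 16, although the description of the wild type arrays has stage 17 as its upper end. Total RNA of whole embryos was used, so fewer cells of a type and less RNA per cell cannot be told apart in any value given here.

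Osiris genes are found in insects, mostly in 1 tandem cluster, and encode proteins with a signal peptide and a shared domain of unknown biochemical function that enter the secretory and endosomal pathway. In Drosophila the cluster coincides with the Triplo-lethal region, a stretch of the genome for which both a single copy and an extra copy kill the animal. Many members are switched on in ectodermal epithelia that make cuticle, including the epidermis and the tracheal tubes, at the time when cuticle is laid down. Osi15 and Osi19, together with Osi9, have been studied in Drosophila for a part in the maturation of tracheal tubes. The protein made by trh is a bHLH-PAS transcription factor that pairs with Tango and is needed to form the tracheal placodes, and the series title puts to the arrays the question of how many tracheal genes it controls.

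The arrays carried 18769 probe sets other than controls, with a median log2 signal between 6.16 and 6.22 per array. Wild type replicate 2 stood apart. Across probe sets, which are not independent replicates, it correlated with the other wild type arrays at 0.979 and 0.976, while those correlated at 0.994 with each other and the trh null arrays at 0.995 to 0.998 among themselves. Some results are therefore also given without it, but not every result that it moves. The targeted gene could not be used to check the genotypes, since trh had no probe set to itself. The labels leave it unsaid whether replicate arrays stem from different collections, and the spread behind each p-value may therefore be technical.

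In trh null embryos 4 of the 10 genes, Osi15, Osi18, Osi19 and Osi20, lost nearly all their signal, with falls of 48.8-fold to 76.2-fold. Osi14 and Osi16 fell by less than 2-fold. Osi11, Osi12, Osi13 and Osi17 did not pass the test. The test was limma's moderated test of genotype on log2 signal, with Benjamini-Hochberg adjustment over the 18769 probe sets and a threshold of 0.05. By it 6 of 10 members were lower in trh null embryos, against 5.64% of all probe sets (11.8% changed in either direction), and 4 of 10 were also at least 2-fold lower, against 1.75% of all probe sets. Without wild type replicate 2 the same 6 of 10 were lower, against 11.7% of all probe sets. On all 6 arrays the median log2 difference of the 10 genes was -0.67, and that of all probe sets was -0.01. An unadjusted p under 0.05 was reached by 7 of the 10 genes and by 26.5% of all probe sets. None of the 10 was higher by the adjusted test, against 6.19% of all probe sets. All 3 trh null arrays lay below all 3 wild type arrays for 8 of the 10 genes, as they did for 18.3% of all probe sets.

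**Figure D1:**
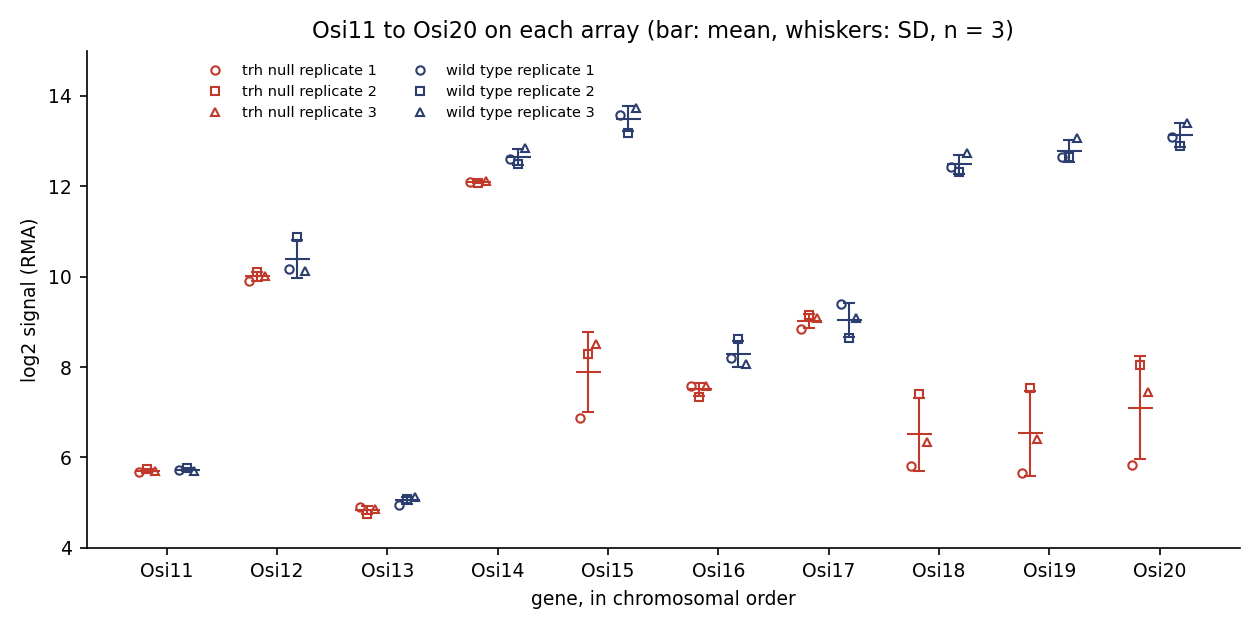
Log2 signal of Osi11 to Osi20 (vertical axis) on each trh null array (red, left of each pair) and each wild type array (blue, right), with the mean and SD of 3 arrays. The trh null points of Osi15, Osi18, Osi19 and Osi20 lie at 5.66 to 8.51 while their wild type points lie at 12.31 to 13.73, and the other 6 genes differ by less than 1 on this scale.

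Osi19, one of the members studied in tracheal tube maturation, had a log2 signal of 5.66, 7.53 and 6.42 on the trh null arrays, against 12.65, 12.64 and 13.06 on the wild type arrays. The genotypes were far apart, and the trh null arrays spread over 1.87 log2 units. The difference was -6.25 (SE 0.45, 95% interval -7.33 to -5.17, limma adjusted p = 0.00103), a 76.2-fold fall.

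Osi20, at the far end of the stretch, had a log2 signal of 5.83, 8.04 and 7.44 on the trh null arrays, against 13.09, 12.88 and 13.41 on the wild type arrays. Its trh null values were the most scattered of the 10 genes, at 7.10 ± 1.15, against 13.13 ± 0.26 in wild type (SD, n = 3 arrays). It fell 65.1-fold, a log2 difference of -6.03 (SE 0.54, 95% interval -7.33 to -4.72, limma adjusted p = 0.00194).

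Osi18 lies between Osi17 and Osi19. It had a log2 signal of 5.80, 7.40 and 6.34 on the trh null arrays, against 12.42, 12.31 and 12.73 on the wild type arrays. The highest trh null array was 4.91 log2 units below the lowest wild type array. The log2 difference was -5.97 (SE 0.39, 95% interval -6.91 to -5.04, limma adjusted p = 0.000768), a 62.9-fold fall.

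Osi15, the other member studied in tracheal tube maturation, does not adjoin these 3 genes. It had a log2 signal of 6.87, 8.28 and 8.51 on the trh null arrays, against 13.58, 13.19 and 13.73 on the wild type arrays. It fell 48.8-fold, with a log2 difference of -5.61 (SE 0.43, 95% interval -6.65 to -4.57, limma adjusted p = 0.00124). The 95% intervals of these 4 falls overlap one another, and their order was not tested. Ranked by size of fall among all probe sets, 5 fell at least as far as Osi15. They were Osi19, CG31559, Osi20, Osi18 and Osi15 itself. The order of these 5 was not tested either. CG31559 lay below the array median on the trh null arrays, so its log2 difference of -6.19 may be understated. Osi18, Osi19 and Osi20 lay below it on trh null replicate 1, so their falls may be understated too.

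**Figure D2:**
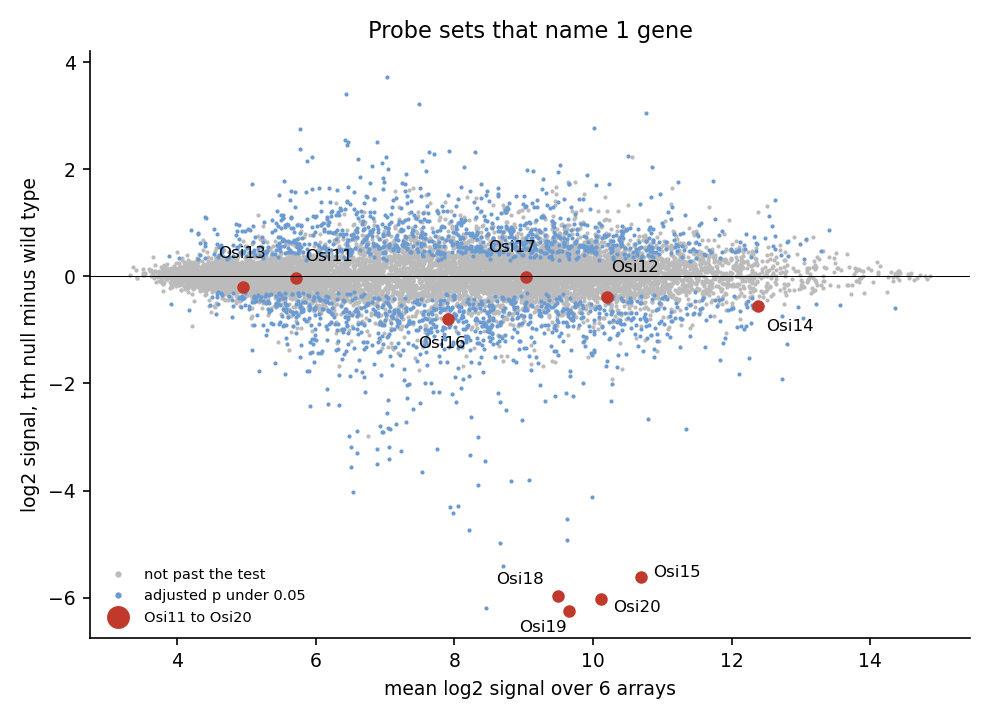
Difference of log2 signal between trh null and wild type (vertical axis) against the mean log2 signal over 6 arrays (horizontal axis) for every probe set that names 1 gene, with those past the test in blue and Osi11 to Osi20 in red. Osi15, Osi18, Osi19 and Osi20 sit at the bottom of the plot between -5.61 and -6.25, and the other 6 genes lie between -0.79 and -0.02.

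The signal left in trh null embryos differed between arrays in a way that these 4 genes shared. As a percentage of the wild type geometric mean, Osi19 kept 0.715%, 2.61% and 1.21% on trh null replicates 1, 2 and 3, and Osi20 kept 0.633%, 2.95% and 1.94%. Osi18 kept 0.972%, 2.94% and 1.41%, and Osi15 kept 1.01%, 2.69% and 3.15%. Replicate 1 was the lowest trh null array for 4 of the 4 genes, while 40.1% of all probe sets were lowest on it. It was also the lowest for Osi11, Osi12 and Osi17, but not for Osi13, Osi14 and Osi16. These percentages include whatever background signal the probes carry, so the true remainder may be smaller.

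The SD of log2 signal over the trh null arrays was 0.81 to 1.15 for the 4 genes, and 99.6% or more of all probe sets had a smaller one. For the other 6 members it was 0.02 to 0.16. In wild type the SD of the 4 genes was 0.22 to 0.28, larger than that of 62.6% to 72.3% of probe sets. Here too the 4 genes ran together: wild type replicate 3 was highest and replicate 2 was lowest for each of them. Of the other 6 members only Osi14 had this order, and Osi9, an Osiris gene outside the 10, had it too. The order was therefore not particular to the 4 genes. Across all probe sets 26.2% were highest on wild type replicate 3 and 31.0% were lowest on replicate 2.

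**Figure D3:**
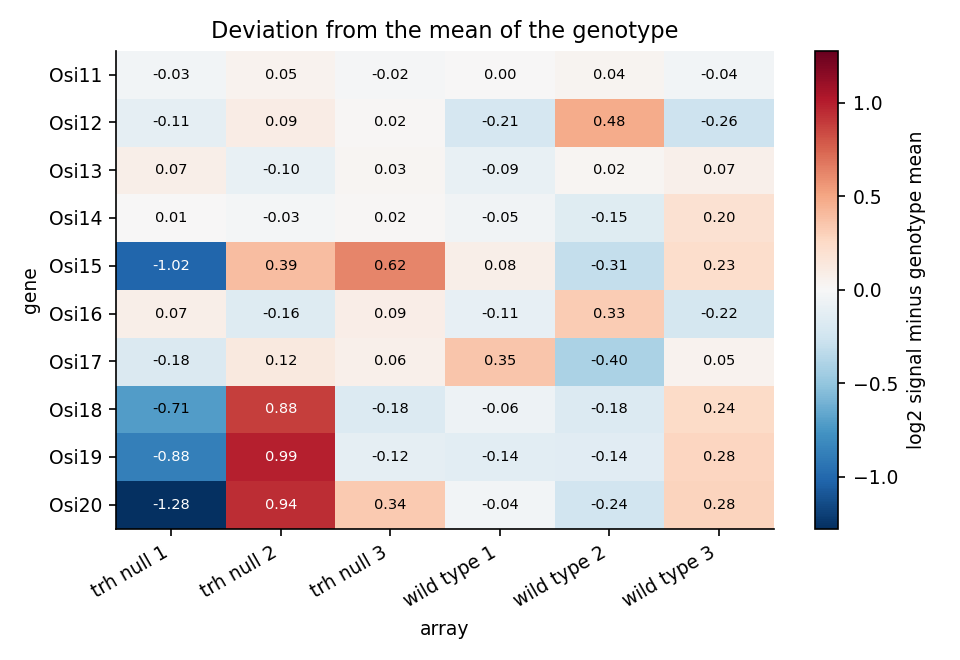
Log2 signal of each gene (rows) on each array (columns) minus the mean of its genotype, trh null arrays on the left and wild type arrays on the right. Osi15, Osi18, Osi19 and Osi20 are below their mean on trh null replicate 1 and above it on replicate 2, whereas Osi12 and Osi16 are above and Osi17 is below their mean on wild type replicate 2.

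The size of these falls did not rest on 1 array. With each array left out in turn the log2 difference stayed between -6.75 and -5.81 for Osi19, between -6.50 and -5.39 for Osi20, between -6.42 and -5.62 for Osi18 and between -5.92 and -5.10 for Osi15. The largest limma adjusted p in these fits was 0.0178, for Osi20. Without wild type replicate 2 the differences were -6.32, -6.15, -6.06 and -5.76 in the same order of genes.

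Osi14 and Osi16 flank Osi15 in the order of Osiris genes and fell far less. Osi14 had a log2 signal of 12.11, 12.07 and 12.12 on the trh null arrays, against 12.61, 12.50 and 12.85 on the wild type arrays. It was 1.47-fold lower, with a log2 difference of -0.55 (SE 0.11, 95% interval -0.81 to -0.30, limma adjusted p = 0.0228). Its transcript was thus bright in both genotypes, and its 3 trh null values lay within 0.05 log2 units of one another.

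Osi16 had a log2 signal of 7.58, 7.34 and 7.59 on the trh null arrays, against 8.19, 8.62 and 8.07 on the wild type arrays. The genotypes did not overlap, and the highest value came from wild type replicate 2. Osi16 was 1.73-fold lower, with a log2 difference of -0.79 (SE 0.16, 95% interval -1.18 to -0.40, limma adjusted p = 0.0273). The calls for Osi14 and Osi16 did not survive the removal of wild type replicate 1 or of any 1 trh null array (0.0551 to 0.114 as the limma adjusted p), which also leaves fewer arrays to test. Without wild type replicate 2 both passed, with differences of -0.63 for Osi14 and -0.63 for Osi16.

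Osi12 and Osi17 gave clear signal in both genotypes and did not pass. Osi12 had a log2 signal of 9.90, 10.10 and 10.03 on the trh null arrays, against 10.18, 10.87 and 10.13 on the wild type arrays. The groups did not overlap, by a margin of 0.02 log2 units between trh null replicate 2 and wild type replicate 3. Wild type replicate 2 was far above the rest. The difference of -0.38 (SE 0.21, 95% interval -0.88 to 0.12, limma adjusted p = 0.297) became -0.14 without that array.

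Osi17 had a log2 signal of 8.84, 9.15 and 9.08 on the trh null arrays, against 9.39, 8.64 and 9.09 on the wild type arrays. The groups overlapped fully, with wild type arrays both above and below all trh null arrays. Its difference was -0.02 (SE 0.20, 95% interval -0.50 to 0.46, limma adjusted p = 0.960). An interval of this width does not show that the genotypes were equal. The value was -0.22 without wild type replicate 2 and 0.15 without wild type replicate 1.

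Osi11 and Osi13 lay below the array median on every array of both genotypes, where probe background can hide a change. Osi11 had a log2 signal of 5.68, 5.75 and 5.69 on the trh null arrays, against 5.73, 5.77 and 5.69 on the wild type arrays, and these values overlapped. Its difference was -0.02 (SE 0.07, limma adjusted p = 0.873). Osi13 had a log2 signal of 4.91, 4.74 and 4.87 on the trh null arrays, against 4.96, 5.07 and 5.12 on the wild type arrays. Every trh null value was the lower, but the difference of -0.21 (SE 0.09, limma adjusted p = 0.187) did not pass. Whether either gene was transcribed in these embryos was not detectable at this signal.

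The large falls did not follow the gene order as a block. By the order of genes in RefSeq, 15 genes run from Osi11 to Osi20, of which 5 are not Osiris genes and 3 of those had probe sets. Among the 10 Osiris genes the order was 4 genes with a small or no measured change (Osi11, Osi12, Osi13 and Osi14), then Osi15 with a 48.8-fold fall, then Osi16 and Osi17 with little or none, then Osi18, Osi19 and Osi20 with falls of 62.9-fold to 76.2-fold. The 95% interval of Osi15 (-6.65 to -4.57) lay clear of those of its Osiris neighbours Osi14 (-0.81 to -0.30) and Osi16 (-1.18 to -0.40). That of Osi18 (-6.91 to -5.04) lay clear of that of Osi17 (-0.50 to 0.46).

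The genes that sit among these members or just past them gave little room to see a large fall. Of their 7 probe sets 5 lay below the array median on every wild type array, where a large fall may be understated. Only CG17919 and 1 probe set of CG15594 lay above it. CG15597 differed by -0.01 on the log2 scale, CG31560 by 0.03, and the 2 probe sets of CG15594 by 0.12 (the brighter one) and -0.15. Past Osi20, CG17917 differed by -0.28, CG10298 by -0.07 and CG17919 by 0.05. None of these 7 probe sets passed the limma test, and 1 of them, for CG17917, had an unadjusted p under 0.05 (0.0165, limma adjusted p = 0.0944). CG46396 and CG46026, also in the stretch, had no probe set of their own and were not analysed here.

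**Figure D4:**
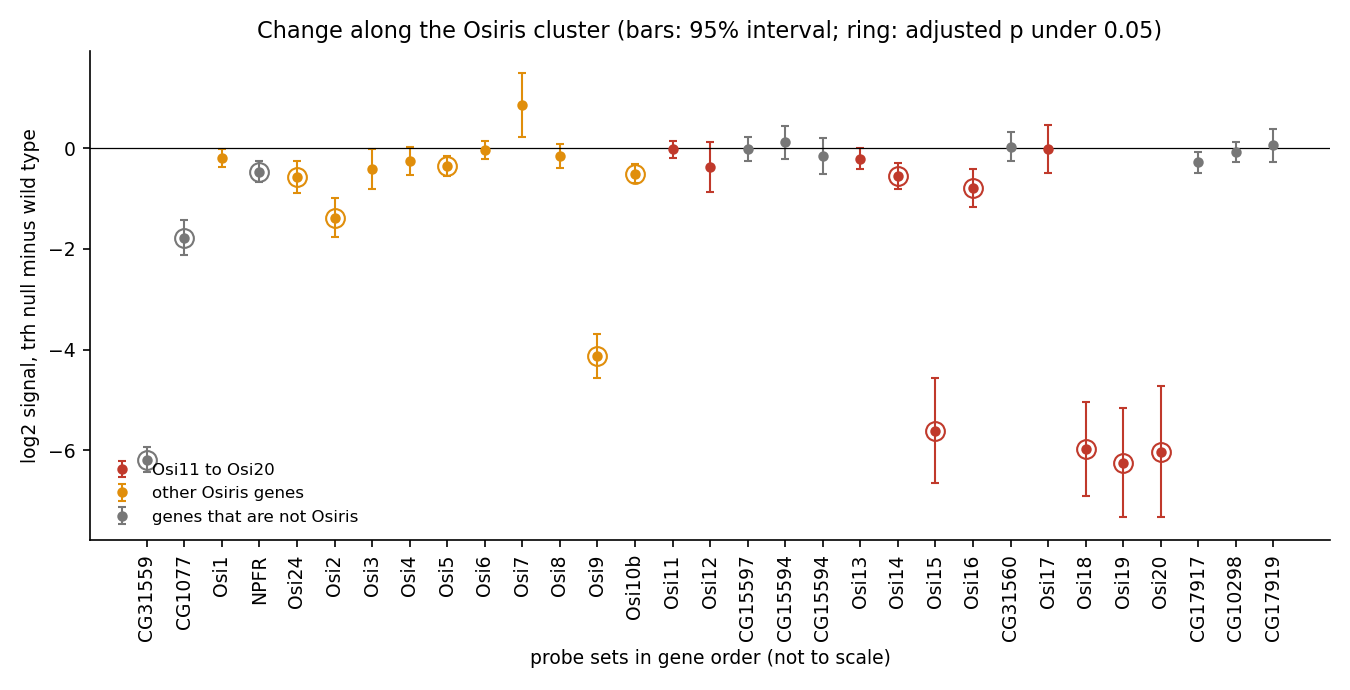
Difference of log2 signal between trh null and wild type (vertical axis) with its 95% interval for the probe sets of the Osiris cluster in gene order, not to scale, with Osi11 to Osi20 in red, other Osiris genes in orange and other genes in grey, and a ring where the adjusted p was under 0.05. CG31559, Osi9, Osi15, Osi18, Osi19 and Osi20 stand below -4. Osi14, Osi16 and Osi17, each next to one of them in the order of Osiris genes, lie between -0.79 and -0.02. CG17917, next to Osi20, lay below the array median in wild type, where a large fall may be understated.

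Of 14 other measured Osiris genes 5 fell, against 5.64% of all probe sets, and 9 did not pass. The median log2 difference of the 14 was -0.28, and how they differ from Osi11 to Osi20 was not tested. Osi9, studied together with Osi15 and Osi19 in tracheal tubes, had a log2 signal of 7.84, 8.25 and 7.70 on the trh null arrays, against 12.14, 11.79 and 12.23 on the wild type arrays. It fell 17.5-fold, and its trh null SD of 0.29 was below the 0.81 to 1.15 of the 4 large falls among Osi11 to Osi20. Osi2 fell by 1.38 on the log2 scale (limma adjusted p = 0.00453), Osi24 by 0.57 (0.0426), Osi10b by 0.51 (0.0108) and Osi5 by 0.36 (0.0398). The calls for Osi24, Osi10b and Osi5 were lost without any 1 of the trh null arrays, with limma adjusted p up to 0.162. Removal of wild type replicate 1 ended the calls for Osi24 and Osi5, and removal of wild type replicate 3 that for Osi5.

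Profiles were compared by Euclidean distance over the 6 arrays, after subtracting the wild type mean of each gene, among 11981 genes. By this measure Osi18 and Osi19 were each other's nearest gene, at 0.53 log2 units. Osi19 was also the nearest to Osi20, at 0.74, and Osi20 was the nearest to Osi15, at 0.99. The only genes outside the family among the 3 nearest to any of the 4 were apn, whose product sits in the membrane of tracheal cells, at 1.30 from Osi15, and CG31559, at 1.47 from Osi19. The trh null SD of CG31559 was 0.02, against 0.94 for Osi19. The nearest to Osi14 were CG42284, DIP-kappa and CG12506, at 0.09, 0.12 and 0.12. Those nearest to Osi16 were CG10116, CG9391 and CG8854, at 0.15, 0.16 and 0.18. Distances of small changes are small by construction, so the 2 sets of values are not on a par. The distance also depends strongly on the size of the fall. Only 5 probe sets fell at least as far as Osi15, so few genes could lie near the 4. Their nearness to one another is therefore no separate evidence that they behave alike.

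Genes of the tracheal tubes were mixed. In a list of tube maturation and lumen genes 6 of 17 fell and 2 rose, with a median log2 difference of -0.34. Among them snu, an ABC transporter gene, fell by 2.69 on the log2 scale, Gasp fell by 1.53 and obst-B fell by 1.46, the last 2 being genes for proteins that bind chitin. Of all probe sets 5.64% fell and 6.19% rose. Without wild type replicate 2, where 11.7% of all probe sets fell and 14.98% rose, 11 of the list fell and 2 rose. In a list for tracheal identity and branching 1 of 15 fell and 3 rose (median 0.13, or -0.15 without wild type replicate 2): btl, the FGF receptor gene of tracheal cells, fell by 1.38, while the transcription factor genes grh and rib rose by 0.80 and 0.69 on the log2 scale. Removal of any 1 trh null array ended the calls for grh and rib, and removal of wild type replicate 3 that for rib (limma adjusted p up to 0.114).

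The epidermis makes cuticle as well. A list of 11 genes was taken for the Shavenbaby pathway, which shapes epidermal denticles, and whether each belongs to it was not tested. In this list ovo, the gene that encodes Shavenbaby, rose by 0.83 and trn by 0.80 on the log2 scale. From the same list dyl fell by 0.40 and 8 did not pass. Removal of trh null replicate 3 ended the call for ovo, removal of any 1 trh null array those for trn and dyl, removal of wild type replicate 3 that for trn and removal of wild type replicate 1 that for dyl (limma adjusted p up to 0.147). Of 6 late cuticle genes only Cpr97Eb fell, by 1.17, against 5.64% of all probe sets, and 5 did not pass. Without wild type replicate 2, 3 fell, against 11.7% of all probe sets. The median log2 difference of the 6 was -0.87, or -1.16 without that array. For the tube maturation and lumen list it was -0.34, or -0.46 without that array. The call for Cpr97Eb was lost without wild type replicate 1 and without any 1 of the trh null arrays (limma adjusted p up to 0.0842). The mean log2 signal of the 6 was 6.55 to 7.34 on trh null arrays and 7.11 to 8.18 on wild type arrays.

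Markers of other tissues and of RNA quality also differed between the genotypes, and their part in the falls of the Osiris genes was not tested. Of 7 muscle markers 5 fell, against 5.64% of all probe sets, and 7 fell without wild type replicate 2, against 11.7%. Their mean log2 signal was 10.52 to 10.90 on trh null arrays, against 11.22 to 12.17 on wild type arrays. TpnC73F, one of several troponin C genes, fell by 2.33, Prm (paramyosin) fell by 1.51 and up (troponin T) fell by 1.14. Of 7 genes listed for the early embryo, of which kni is also on the tracheal list, 5 rose, against 6.19% of all probe sets. What these 7 genes mark at the stages used here was not tested, so their rise does not tell the age of the embryos. The mean log2 signal of the 7 was 8.34 to 8.48 on trh null arrays, against 7.60 to 7.97 on wild type arrays. The rises were 1.22 for ftz, 1.14 for Kr and 0.86 for sna. The calls for Kr and sna were lost without trh null replicate 2 or 3, and the one for sna without trh null replicate 1 or wild type replicate 3 as well (limma adjusted p up to 0.135).

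None of 5 neuron markers passed the limma test, while 3 of them were higher at an unadjusted p under 0.05 and 3 rose without wild type replicate 2, where 14.98% of all probe sets did. The log2 difference was 1.65 for elav and 1.15 for futsch. With 1 array left out it lay between 1.05 and 2.02 for elav and between 0.79 and 1.35 for futsch. The wild type signal of elav was 11.05, 10.76 and 9.11, with replicate 3 far below the others, and elav passed without wild type replicate 2 or 3. The mean log2 signal of the 5 was 7.73 to 7.91 on trh null arrays, against 6.97 to 7.33 on wild type arrays. Control probe sets at the 3' end of actin exceeded those at its 5' end by 0.76 ± 0.03 on trh null arrays and 1.36 ± 0.09 on wild type arrays, in log2 units (SD, n = 3). For GAPDH this excess was 0.84 ± 0.13 on trh null arrays and 1.12 ± 0.08 on wild type arrays (SD, n = 3).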

How the data were processed

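RNA of whole embryos was hybridised to 6 Affymetrix arrays of 1 colour, 3 per genotype. According to the labels' protocols, TRIzol extracts were cleaned on columns, amplified from the 3' end and labelled with biotin. The submitters' processing notes name RMA and Partek, without versions. The authors deposited log2 values, with base 2 inferred from the range of the deposited table and from RMA. RMA as generally run equalises the arrays' distributions, so a change shared by all transcripts could be hidden, and signal near background understates a fold change.

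Of 18952 probe sets, 183 controls were left out. Probe sets were named from the platform annotation, which gave 1 gene for 13646, several for 402 and none for 4721. A gene was represented by its brightest probe set. RefSeq's table (Release 6 plus ISO1 MT), to which all 10 members matched, gave gene order only. The build of the array annotation was not given in the sources used here, so no coordinates are printed. Genotype was the only term in limma 3.58.1 (R 4.3.3, lmFit and eBayes), which was tested on simulated data. Groups came from the sample titles. Python 3.11.15 with pandas 2.3.3 joined the tables, and matplotlib 3.10.9 drew the figures.

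The members and the gene lists were chosen with earlier results of these data known. Named are all members, the genes between and after them in the gene order, the 3 nearest profiles of each member that passed, up to 4 other Osiris genes that passed and up to 3 genes per list (2 where none passed). Osi5, Osi6, Osi7, NPFR, CG1077 and the place of CG31559 in the gene order were picked after their values were seen. Alternatives were other variance moderation, array weights, 3 normalizations, a filter on dim probe sets, averaging over probe sets, a block for the replicate number, stricter thresholds and leaving out each array. The number of arrays limits the precision.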

Additional observations from a re-analysis of the deposited data

How the results depend on the processing

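The calls for Osi15, Osi18, Osi19 and Osi20 held under all 15 other fits and both stricter thresholds. The number of members called was 6 with trend and robust moderation, array weights, each normalization, the filter on dim probe sets and the mean over probe sets. It was 4 with unmoderated variances, at an adjusted p under 0.01 and with a 2-fold minimum, and 4 to 6 with 1 array left out. Osi14 and Osi16 lost their calls in 6 of the 15 fits each. Osi13 was removed by the dim filter. The sign turned for Osi11 with cyclic loess (0.0091) and quantile normalization (0.00065), and for Osi17 with some single arrays left out (-0.22 to 0.15). Over all probe sets 2219 passed, against 949 with unmoderated variances, 6003 with array weights, 738 at an adjusted p under 0.01, 607 with a 2-fold minimum and 704 to 5001 with 1 array left out, of which 5001 was without wild type replicate 2; the cause was not tested. With the replicate block 726 probe sets and 4 members passed (limma adjusted p = 0.0748 for Osi14 and 0.110 for Osi16). Same-numbered arrays of the genotypes did not deviate together (correlation of deviations -0.37, -0.06 and -0.05), so the numbers were not taken as pairs. The number of arrays and signal near background limit what could be seen for Osi11 and Osi13.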

Other observations

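Elsewhere in the Osiris cluster Osi6 and Osi7 were bright in trh null embryos too. Osi6 had a log2 signal of 14.50, 14.58 and 14.54 on the trh null arrays, against 14.59, 14.52 and 14.61 on the wild type arrays; the groups overlapped. Osi7 had 11.16, 11.80 and 11.78 on the trh null arrays, against 10.79, 10.27 and 11.12 on the wild type arrays. Each trh null value of Osi7 was above every wild type value, but the difference of 0.85 did not pass (limma adjusted p = 0.0954).

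The 2 genes that precede Osi1 in the RefSeq order fell as well. CG31559 had a log2 signal of 5.37, 5.34 and 5.37 on the trh null arrays, against 11.54, 11.72 and 11.38 on the wild type arrays, a fall by 6.19 on the log2 scale. CG1077 fell by 1.78 (limma adjusted p = 0.00156). NPFR, a neuropeptide receptor gene between Osi1 and Osi24, fell by 0.46 (limma adjusted p = 0.0190), a call lost without wild type replicate 3 or any 1 of the trh null arrays (adjusted p up to 0.0934).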
